A study of Mus musculus with 5 samples.

Results

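The Rab GTPase genes were examined in mouse brain RNA captured in vitro by the protein MA-Brent-1. Members were the probe sets annotated with exactly 1 gene symbol of the form Rab followed by a number and an optional letter, such as Rab3a. This gave 132 of 45101 probe sets, for 59 genes. MA-Brent-1 is an mRNA export adaptor of the REF/Aly type, and deimination converts arginines of a protein to citrulline. The series held 5 Affymetrix mouse expression arrays of brain RNA: 2 of RNA eluted from deiminated MA-Brent-1, 2 of RNA eluted from the non-deiminated protein, and 1 of the starting RNA that had met no protein, called input. In each bound group 1 sample title names the protein MA-Brent-1 and the other REFP2. The sources used here name no strain, age, sex or brain region. The labels give no sign that input RNA was prepared more than once, and only 1 bound sample is called a biological repeat, so p-values measure the spread between these arrays, which may be technical.

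Rab proteins are small GTPases of membrane traffic. Each switches between a GTP-bound form, which recruits effectors to a membrane, and a GDP-bound form, which GDP dissociation inhibitor (GDI) carries through the cytosol. Exchange factors load GTP, GTPase-activating proteins speed its hydrolysis, and a C-terminal prenyl group anchors the protein. In neurons, Rabs act in synaptic vesicle release, axonal transport and endosomal sorting, and many are made in most cell types.

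The values are MAS5 signals, a linear brightness per probe set, and their trimmed mean was 150 on every array as deposited. The median signal of an array was 29.8 to 41.4 for bound RNA and 102 for input. Controls spiked in for hybridisation had a mean of 10.08 to 13.04 log2 for bound RNA and 17.04 for input, so the input array stood apart from the rest. Each bound group had an array with lower controls (replicate 1) and an array with higher controls (replicate 2). Of the markers of brain cells, all 10 for neurons, 6 for astrocytes and 5 for oligodendrocytes that were measured passed the filter on mean signal. The summed signal of the neuronal markers was 20131 to 23924 on the bound arrays and 10941 on the input array. Camk2a alone of the 10 was lower in bound RNA, with 1894 to 4094 against 5949 on input. The astrocyte sum was 15852 to 22734 bound and 6079 on input, and the microglial sum 4626 to 5854 and 3698. Input lay within the bound range for oligodendrocyte markers (23221 to 68236, input 48663) and endothelial markers (759 to 1008, input 955). Over 4 photoreceptor markers, which brain should hardly contain, the summed signal was 72.7 to 214 on the bound arrays and 1150 on the input array. No marker was at 0. In the starting RNA, a bulk sample, fewer cells of a type and less RNA per cell cannot be told apart. Between bound arrays and input, the marker sums compare eluted with starting RNA and do not measure cell numbers.

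The comparison of bound RNA with input asks which transcripts the protein took up. The single input array also differs from all bound arrays in its spiked controls and median signal. In this design, uptake by the protein and such differences between arrays cannot be told apart. In limma fits to all probe sets, more Rab probe sets were higher than lower in bound RNA. Of 132 members, 108 passed a filter on mean signal. Of these 108, limma called 37 higher in bound RNA, or 34.3%, where 26.8% of all 27022 probe sets tested were called higher (Benjamini-Hochberg adjusted p under 0.05). It called 19 lower, or 17.6%, against 29.8% of all. The median log2 difference of the 108 was 0.42, and -0.20 for all probe sets tested. A total of 94 had all 4 bound arrays on 1 side of the input array, which is 87.0% against 84.7% of all, and 64 had an unadjusted p under 0.05, where 62.3% of all did. Taken alone, RNA from the deiminated protein gave 36 Rab probe sets higher (24.9% of all) and 16 lower (26.6% of all). RNA from the non-deiminated protein gave 35 higher (24.7% of all) and 20 lower (25.7% of all). Both use the same input array.

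The filter uses the mean over all 5 arrays, 4 of them bound, so it is not independent of the calls. The 108 are therefore not a fair sample of the family. With no filter, 36 of the 132 members were called higher, or 27.3%, against 15.6% of all probe sets, and 26 lower, or 19.7%, against 36.2%. The median of all 132 was then -0.16, and -0.92 for all probe sets.

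The share of members called also followed brightness. When all tested probe sets were split into 4 bins of equal size by mean signal over the 5 arrays, a split added after the data were seen, the dimmest bin held 21 Rab probe sets and the brightest 40. In the brightest bin 25 Rab probe sets, or 62.5%, were called higher, against 54.0% of all probe sets there. In the next bin it was 9 of 35, or 25.7%, against 27.4%. It was 1 of 12 in the second dimmest bin, or 8.33% against 19.6%, and 2 of 21 in the dimmest, or 9.52% against 6.04%. Calls of lower went the other way: 8 of 21 in the dimmest bin, or 38.1% against 48.4% of all. They were 5 of 12 in the second dimmest, or 41.7% against 40.4%, and 5 of 35 in the bin above, or 14.3% against 22.9%. In the brightest they were 1 of 40, or 2.50% against 7.70%. The mean signal includes the arrays compared, so the bins are not independent of the calls. Their part in the family's counts was not tested.

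**Figure D1:**
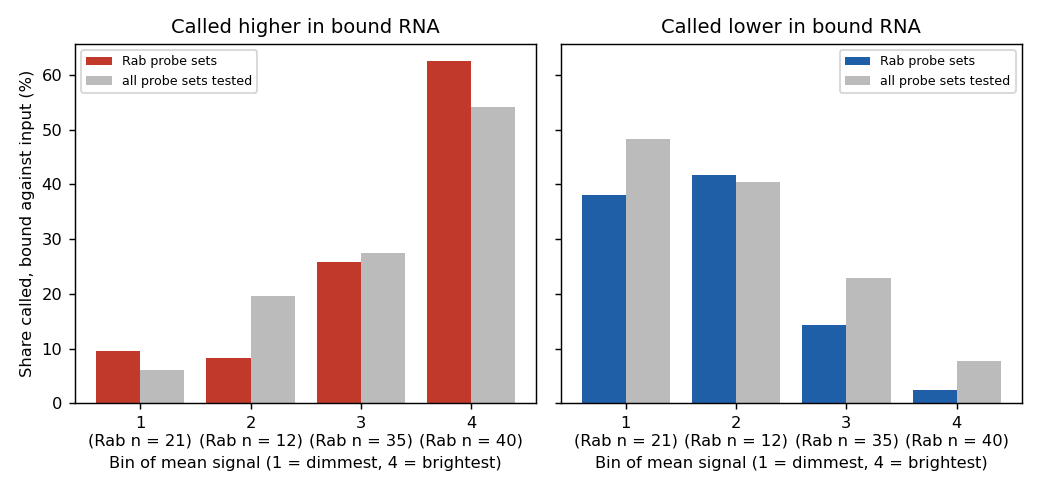
Share of probe sets called higher (left, red) or lower (right, blue) in bound RNA than in input, in percent, by bin of mean signal, for Rab probe sets and for all tested probe sets (grey). Both shares of calls change steeply with brightness for the Rab members and for all probe sets, and in the brightest bin 62.5% of Rab members were called higher against 54.0% of all.

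The sizes depend on how the arrays were scaled. The median of all probe sets was -0.20 as deposited, 0.50 after quantile normalisation, -0.26 after cyclic loess, 1.26 after median centring and 4.33 after scaling to the hybridisation controls. The Rab median exceeded it in each case, by 0.62, 0.52, 0.29, 0.62 and 0.49. Rab calls split into 37 higher and 19 lower as deposited, 51 and 17 after quantile normalisation, 28 and 16 after loess, and 59 and 4 after median centring. Scaled to the controls, limma called 0 of 110 Rab probe sets, with 52 at an unadjusted p under 0.05, and 101 of all 27022. Of the 37 members called higher, 35 stayed positive under all 4 scalings, and 2 turned negative after loess, where 23 were still called. Every scaling except loess raised the median of all probe sets, so a rise could hardly turn negative under it. The 19 called lower all stayed negative after quantile normalisation and loess, 1 turned positive after median centring, and all 19 turned positive after control scaling.

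Genes are named below by 1 probe set each, the one with the highest mean signal, which gave 52 genes past the filter. Of these, 21 (40.4%) were called higher, against 31.6% of 13055 genes taken the same way, and 5 (9.62%) lower, against 24.8%. The mean covers 5 arrays, 4 of them bound, so this choice of probe set is not independent of the calls. Dimmer probe sets of a gene can go the other way, as given below. Differences are log2 with standard errors, 4 bound arrays against 1 input array, and adjusted p-values are limma's.

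Of the 8 secretory and synaptic vesicle genes, 2 were called higher (25%, against 31.6% of genes), 0 lower (against 24.8%) and 6 were not called. Of their 19 tested probe sets, 4 were called higher (21.1%, against 26.8% of all) and 7 lower (36.8%, against 29.8%). Rab3a, the main Rab of synaptic vesicles, read 8349 and 11534 with deiminated protein, 6971 and 12712 with non-deiminated protein, and 12198 on input. The bound arrays lie on both sides of input, and the difference was -0.34 ± 0.55 (adjusted p = 0.607). It was -1.90 and called after cyclic loess, and 1.11 and called after median centring. The other Rab3a probe set read 472 and 527 deiminated, 571 and 303 non-deiminated, and 58.2 on input. All 4 bound arrays were above input there, by 2.88 ± 0.41 (adjusted p = 0.000122), so the 2 probe sets of the gene disagree.

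Rab3c, a close relative of Rab3a on synaptic vesicles, rose by 2.98 ± 0.37 (adjusted p = 4.46e-05). Its signals were 729 and 1124 deiminated, 751 and 581 non-deiminated, and 94.2 on input, so bound and input do not overlap. Of its other 3 tested probe sets, 2 were called lower, at -1.70 and -1.71, and the last had -1.57. Rab37, which acts in regulated secretion, read 41.6 and 65.3 deiminated, 35.4 and 70.8 non-deiminated, and 5.92 on input. It rose by 2.46 ± 0.77 (adjusted p = 0.0167), but its input signal lies near the pseudocount of 4.18 that was added before taking log2, and the call was lost without deiminated replicate 2 (2.30, adjusted p = 0.0566). Its second probe set, under the filter, read 121.9 on input and 1.25 to 4.34 on the bound arrays.

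Rab3b, another Rab3 form, read 120.1 and 110.3 deiminated, 107 and 112 non-deiminated, and 157 on input, a difference of -0.47 ± 0.45. Rab3d, the Rab3 form of many exocrine and mast cells, read 115 and 177 deiminated, 91.1 and 85.8 non-deiminated, and 138 on input, a difference of -0.29 ± 0.47. Its other 3 probe sets were all called lower, at -2.57, -3.11 and -3.20. Rab27a and Rab27b, which dock secretory granules and melanosomes, had differences of -0.65 ± 0.62 and -0.23 ± 0.43 and were not called. Rab27a read 38.4 and 79.3 deiminated, 47.7 and 61.9 non-deiminated, and 88.5 on input, all bound arrays below it. Rab27b read 446 and 279 deiminated, 377 and 196 non-deiminated, and 363 on input, on both sides of it. A second Rab27a probe set was called lower (-2.25), and of the other 3 of Rab27b, 1 was called higher (2.16) and 1 lower (-2.27). The differences of Rab3b, Rab3d, Rab27a and Rab27b were positive after median centring (0.81 to 1.23). Rab26, also of secretory vesicles, had 1.74 ± 0.78 and was not called (adjusted p = 0.0727).

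**Figure D2:**
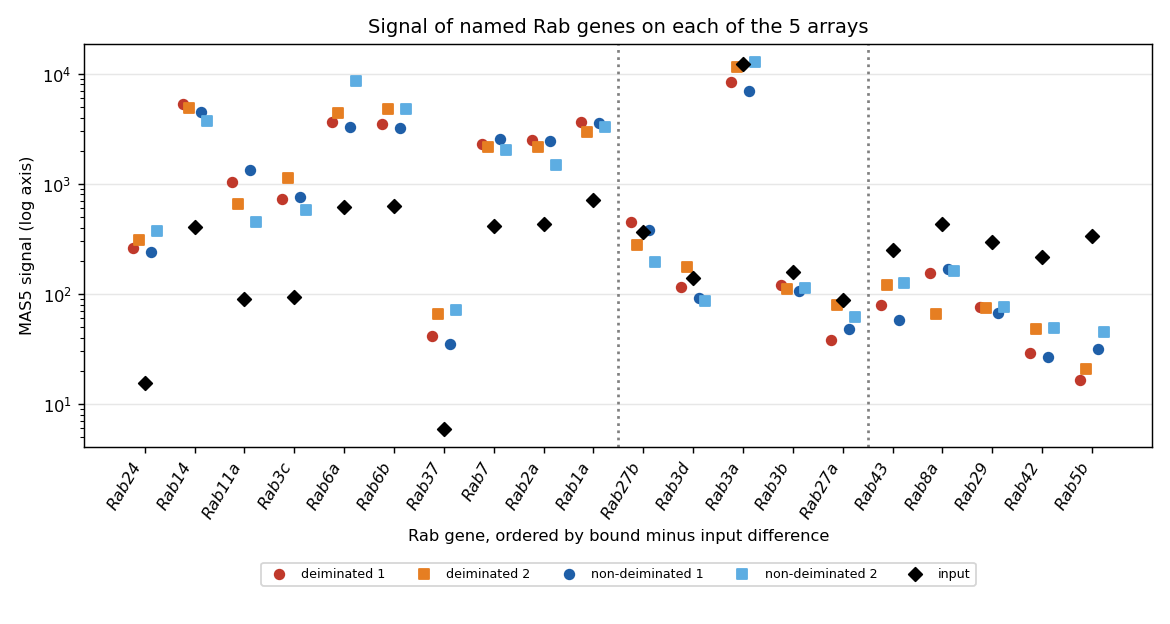
MAS5 signal on a log axis for 20 Rab genes, 1 probe set each, with 1 point per array (red and orange deiminated, dark and light blue non-deiminated, black diamond input). Dotted lines part the 10 genes named as called higher, 5 not called and the 5 called lower. The 4 bound arrays lie close together beside their distance from input for Rab14, Rab7 and Rab1a, and on both sides of input for Rab3a.

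Among Rabs of the endoplasmic reticulum (ER) and Golgi, 6 of 14 genes were called higher, 1 lower and 7 neither. That is 42.9% higher, against 31.6% of genes, and 7.14% lower, against 24.8%. Rab6a, which directs traffic within and out of the Golgi, rose on all 3 of its probe sets, by 2.90, 2.97 and 5.88. The last of these read 2508 and 1841 deiminated, 2321 and 2228 non-deiminated, and 33.5 on input. Those bound arrays lie close together, far above input. Rab6b, the neuron-rich form of Rab6, rose by 2.67 ± 0.41 (adjusted p = 0.000222), with 3506 and 4812 deiminated, 3233 and 4747 non-deiminated, and 628 on input. Of its other 3 probe sets, 1 was called higher (3.41), 1 lower (-2.97), and 1 had -0.19.

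Rab1a, which acts from ER to Golgi, read 3666 and 2983 deiminated, 3590 and 3264 non-deiminated, and 706 on input. The bound groups overlap fully and lie above input, and the rise was 2.25 ± 0.37 (adjusted p = 0.000436). Its close relative Rab1b read 258 and 288 deiminated, 269 and 258 non-deiminated, and 302 on input, with a difference of -0.17 ± 0.36. Rab2a, of the ER-Golgi intermediate compartment, rose by 2.28 ± 0.38 (adjusted p = 0.000463). Its signals were 2482 and 2157 deiminated, 2450 and 1471 non-deiminated, and 429 on input. The 6 tested Rab2a probe sets ran from -1.99 to 2.38, with 3 called higher and 1 lower. Rab2b rose by 1.71 and Rab33b, of the Golgi, by 1.80. The lowest Rab2b probe set had -0.15. Rab1a and Rab2a kept their sign but lost their call after cyclic loess (0.77 and 0.85). Rab43 fell by 1.41 ± 0.53 (adjusted p = 0.037), with 78.7 and 120.1 deiminated, 57.8 and 126 non-deiminated, and 249 on input. Its call was lost without deiminated replicate 1 (-1.26, adjusted p = 0.0813), after quantile normalisation (-0.78), after loess (-1.29) and with no variance trend (adjusted p = 0.0751), and its sign turned after median centring (0.05) and control scaling (3.61).

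Of the recycling endosome Rabs, 3 of the 4 genes past the filter were called higher (31.6% of all genes were) and none lower (24.8%). Of their 13 tested probe sets, 8 were called higher (61.5%, against 26.8% of all) and 1 lower (7.69%, against 29.8%). Rab14, which acts between endosomes and Golgi, read 5268 and 4868 deiminated, 4448 and 3691 non-deiminated, and 409 on input. It rose by 3.46 ± 0.38 (adjusted p = 1.74e-05), about 11.0-fold. Of its 7 probe sets, 5 were called higher, from 2.62 to 5.86, and the other 2 had -0.98 and -0.67. Rab11a, the main Rab of recycling endosomes, rose by 3.09 ± 0.50 (adjusted p = 0.000351), with 1036 and 652 deiminated, 1324 and 448 non-deiminated, and 90.0 on input. Here the arrays with lower controls were the brighter ones in both groups, and the second probe set rose by 1.66. Rab15 rose by 1.01. Rab11b, the form rich in brain, read 625 and 760 deiminated, 886 and 800 non-deiminated, and 462 on input, and was not called (0.72 ± 0.34, adjusted p = 0.0852), while a dimmer probe set of it was called lower (-2.31).

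Late endosomal and lysosomal Rabs had 3 of 8 genes called higher (37.5%, against 31.6% of genes) and 2 lower (25%, against 24.8%). Rab24, linked to autophagy, rose by 3.90 ± 0.43 (adjusted p = 1.63e-05), the largest of the 52 genes at this pseudocount. With a pseudocount of 16.7 it was 3.25, below the 3.42 of Rab14. It read 260.2 and 306 deiminated, 241 and 372 non-deiminated, and 15.6 on input, and its other probe set rose by 2.23. Rab7, the Rab of late endosomes, rose by 2.42 ± 0.35 (adjusted p = 0.000159), with 2301 and 2142 deiminated, 2544 and 2030 non-deiminated, and 416 on input. Rab9, which returns receptors from late endosomes to the Golgi, rose by 1.76. Rab29, a partner of the kinase Lrrk2, fell by 1.95 ± 0.48 (adjusted p = 0.00503), with 76.0 and 73.7 deiminated, 66.7 and 76.0 non-deiminated, and 293 on input. Rab42 fell by 2.43 ± 0.65 (adjusted p = 0.00777), from 216 on input to between 26.4 and 48.8 on the bound arrays.

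In the early endosome group 3 of 8 genes were called higher (37.5%, against 31.6% of genes) and 1 lower (12.5%, against 24.8%). Rab5a, the Rab that drives early endosome fusion, rose by 1.98 ± 0.38, with 1571 and 1252 deiminated, 1809 and 1050.4 non-deiminated, and 349 on input. Its paralogue Rab5b fell by 3.44 ± 0.66 (adjusted p = 0.00118), about 10.9-fold, with 16.6 and 20.6 deiminated, 31.9 and 45.3 non-deiminated, and 333 on input. The other Rab5b probe set had 1.39 ± 0.88. Rab5c had -0.99 ± 0.69 and was not called. Rab4a, of fast recycling, rose by 2.20 and Rab22a by 1.20. The other tested Rab4a probe set had -1.93 and was not called, and the 4 of Rab22a ran from -0.79 to 2.80.

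Rabs of polarised delivery, tubules and cilia had 3 of 8 genes called higher (37.5%, against 31.6% of genes) and 1 lower (12.5%, against 24.8%). Rab8b rose by 1.94, Rab10 by 1.77 and Rab12 by 1.32. The lowest tested probe sets of Rab10 and Rab12 had -0.31 and -4.04. Rab8a, which acts in delivery to the plasma membrane and the primary cilium, fell by 1.69 ± 0.48 (adjusted p = 0.0103). It read 155 and 65.6 deiminated, 168 and 163 non-deiminated, and 428 on input. The paralogues Rab8a and Rab8b thus had calls in opposite directions. Of the 2 measured Rab40 genes, which encode ubiquitin ligase adaptors and were in none of the role lists, Rab40b rose by 2.19 and Rab40c had 0.83.

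The 10 named genes that rose were positive on their named probe set under every alternative run. Quantile normalisation, median centring and control scaling raised the median of all probe sets, so they say little about the sign of a rise. Some tested probe sets were negative for Rab14 (2 of 7), Rab3c (3 of 4), Rab6b (2 of 4) and Rab2a (2 of 6). All 10 genes lost their call when arrays were scaled to the hybridisation controls (limma adjusted p 0.0523 to 0.124). Their differences were then larger, 4.67 to 8.65, and so were their standard errors. The 5 that fell (Rab5b, Rab42, Rab29, Rab8a and Rab43) were at 1.61 to 3.61 under that scaling, which moved the median of all probe sets from -0.20 to 4.33. After median centring, limma no longer called Rab42 (-0.97), Rab29 (-0.49) or Rab8a (-0.23).

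Probe sets of 1 gene often disagreed. A total of 31 Rab genes had more than 1 tested probe set, and in 20 of them the signs were mixed for bound against input. These counts were not made for other genes, so whether Rab genes differ from them was not tested. In 5 genes (Rab2a, Rab3c, Rab6b, Rab12 and Rab27b) limma called probe sets in both directions. Of the 31, 4 were called higher on every tested probe set: Rab1a, Rab6a, Rab11a and Rab24. The median span between the lowest and highest probe set of a gene was 2.23 log2, and the widest was 6.84, in Rab14. Of the 2 probe sets of Rab12, 1 read 188 to 483 on the bound arrays and 115 on input, and the other read 14.2 to 22.8 on the bound arrays and 346 on input. All 7 tested probe sets with identifiers ending in s_at, which can detect several transcripts, were called higher, against 39.2% of all 1571 tested probe sets of that kind.

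**Figure D3:**
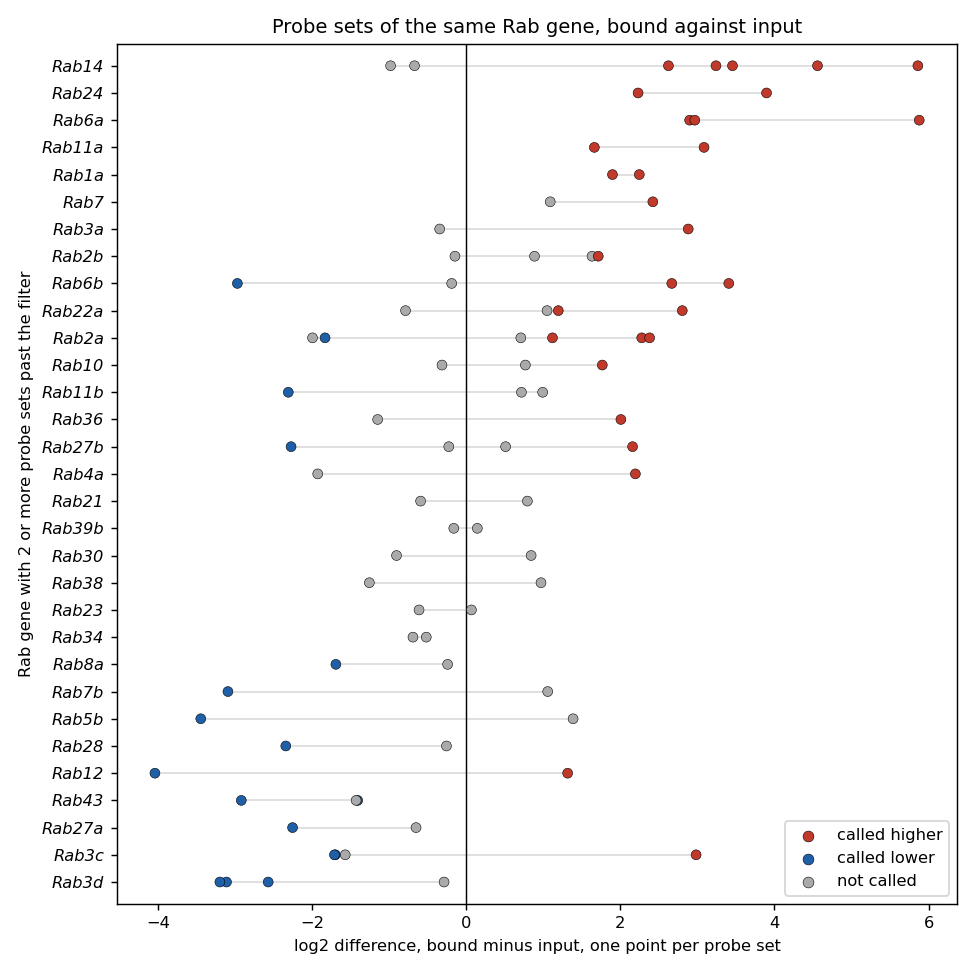
Log2 difference, bound minus input, for each tested probe set of the 31 Rab genes with more than 1, coloured by limma's call (red higher, blue lower, grey not called), a row per gene. Rab1a, Rab6a, Rab11a and Rab24 are red throughout, while Rab2a, Rab3c, Rab6b, Rab12 and Rab27b hold both colours.

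The 19 Rab probe sets called lower read 130.4 to 1718 on input (median 266), while their means over the bound arrays ran from 17.3 to 557, with a median of 44.9. The 37 called higher read 5.92 to 706 on input, with a median of 115, and had bound means of 42.9 to 4984. The calls and the filter both use these signals, so the ranges are a description.

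Below the filter lay 24 probe sets, and for 7 genes (Rab17, Rab19, Rab20, Rab25, Rab32, Rab39 and Rab44) no probe set passed. Rab25, a Rab of epithelia, read 6.93 and 2.51 deiminated, 6.33 and 6.11 non-deiminated, and 299 on input. Rab20, linked to macrophage phagosomes, read 0.456 to 4.21 on the bound arrays and 70.0 on input, and Rab44 1.73 to 8.88 and 37.9. With no filter, limma called 8 of the 24 lower, Rab25, Rab20 and Rab44 among them, where it called 48.6% of all 18015 probe sets under the filter lower. It called none of the 24 higher, against 0.0389% of all. Rab32, of melanosomes and mitochondria, read 1.59 to 17.3 on the bound arrays and 14.3 on input, and was not called. Rab17, of polarised epithelia, went the other way on 1 probe set, with 23.8 to 30.9 on the bound arrays and 9.36 on input, and was not called. The photoreceptor markers above also read higher on input than on the bound arrays, and their part in the calls of dim members was not tested.

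Regulators and effectors of Rabs, taken from a list of 119 genes, 103 of them tested, had 42 called higher (40.8%, against 31.6% of genes) and 24 lower (23.3%, against 24.8%), with a median of 0.47 beside 0.12 for all genes. Effectors had 20 of 39 higher and 9 lower. Exchange factors had 10 of 26 higher and 5 lower, and GTPase-activating proteins 9 of 31 each way. Of the 7 escort, GDI and prenylation genes, 3 were higher and 1 lower. The exchange factor Dennd5b rose by 5.60 ± 0.38, from 7.51 on input to between 488 and 634. The Golgi tether Uso1, a Rab1 effector, rose by 4.39 and the Rab acceptor Rabac1 by 3.73. Sytl2, a Rab27 effector, rose from 18.4 on input to between 240.5 and 602. Among genes called lower, the GTPase-activating genes Tbc1d10a and Tbc1d8 fell by 3.09 and 2.47. The exchange factor Dennd4a fell by 2.01, and Mlph, the Rab27a effector of melanosomes, by 2.80 from 242 on input.

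Setting both forms of the protein side by side asks whether deimination alters which RNAs bind. No Rab transcript passed the test. limma called 0 of 108 Rab probe sets, as it called 0% of all 27022, and every adjusted p was 0.9999. At an unadjusted p under 0.05 there were 3, which is 2.78% against 1.32% of all. The median difference was -0.03, with 51 positive and 57 negative. The groups did not overlap for 22 of 108, or 20.4%, against 24.1% of all. The 95% interval lay within 2-fold either way for 32 of the 108 and within 4-fold for 96, so a smaller change of most members was not detectable with these arrays.

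The 3 probe sets with an unadjusted p under 0.05 were of Rab23, Rab3d and Rab30, and were chosen here after their values were seen. Rab23, a Rab of the primary cilium and Hedgehog signalling, read 110.3 and 121 deiminated, 82.6 and 13.4 non-deiminated, and had 1.61 (0.14 to 3.08). Its size rests on non-deiminated replicate 2: the difference was 0.40 between the arrays with lower controls and 2.83 between those with higher controls. A second Rab23 probe set had 0.44. The Rab3d probe set read 40.2 and 53.8 deiminated, 24.4 and 8.83 non-deiminated, and had 1.39 (0.01 to 2.78). The Rab30 probe set had -0.98 (-1.96 to -0.01), with 69.3 and 49.2 deiminated against 101 and 142 non-deiminated. The brighter Rab30 probe set went the other way, 0.56 (-0.28 to 1.41), and its groups did not overlap either.

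With 1 probe set a gene, groups did not overlap for 8 of 52 genes, or 15.4%, against 23.7% of 13055 genes, 5 with a higher and 3 with a lower deiminated signal. Rab3d had 0.66 (-0.24 to 1.57), with 115 and 177 deiminated against 91.1 and 85.8 non-deiminated. Rab14 had 0.32 (-0.42 to 1.06), Rab15 0.30 and Rab22a 0.26 (-0.44 to 0.96). On the other side, Rab5b had -0.90 (-2.18 to 0.39), with 16.6 and 20.6 deiminated against 31.9 and 45.3 non-deiminated, and was negative at both control levels. Rab8a had -0.69 (-1.61 to 0.24), but -0.11 between the arrays with lower controls and -1.26 between the others. Its second probe set had 0.66, also without overlap. Rab11b had -0.29 (-0.94 to 0.37). None of these passed.

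All 8 genes of secretory and synaptic vesicles had a positive difference, where 6474 of all 13055 genes did. The smallest was 0.03 for Rab27a and the largest 1.10 (-0.41 to 2.61) for Rab26, and none passed. Of the 19 probe sets of these genes, 14 had a positive and 5 a negative difference. Rab3a had 0.06 ± 0.49, Rab3b 0.07, Rab3c 0.45 (-0.26 to 1.17) and Rab27b 0.37. The sign of Rab3a turned after quantile normalisation and loess, and that of Rab27a after scaling to the hybridisation controls. Between the arrays with lower controls, Rab3c had -0.04 and Rab26 -0.12, and between those with higher controls 0.95 and 2.33. The signs of Rab3a, Rab3b, Rab27a and Rab37 also differed between the control levels, while Rab3d and Rab27b were positive at both. Over the 108 probe sets, the difference had the same sign at both control levels in 44, or 40.7%, against 47.4% of all. Of the 10 genes named as risen against input, the difference lay between -0.43 for Rab6a and 0.45 for Rab3c, with -0.09 for Rab24, 0.32 for Rab14 and 0.09 for Rab11a. The bounds of their 10 intervals lay between -1.44 and 1.54, both for Rab37.

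**Figure D4:**
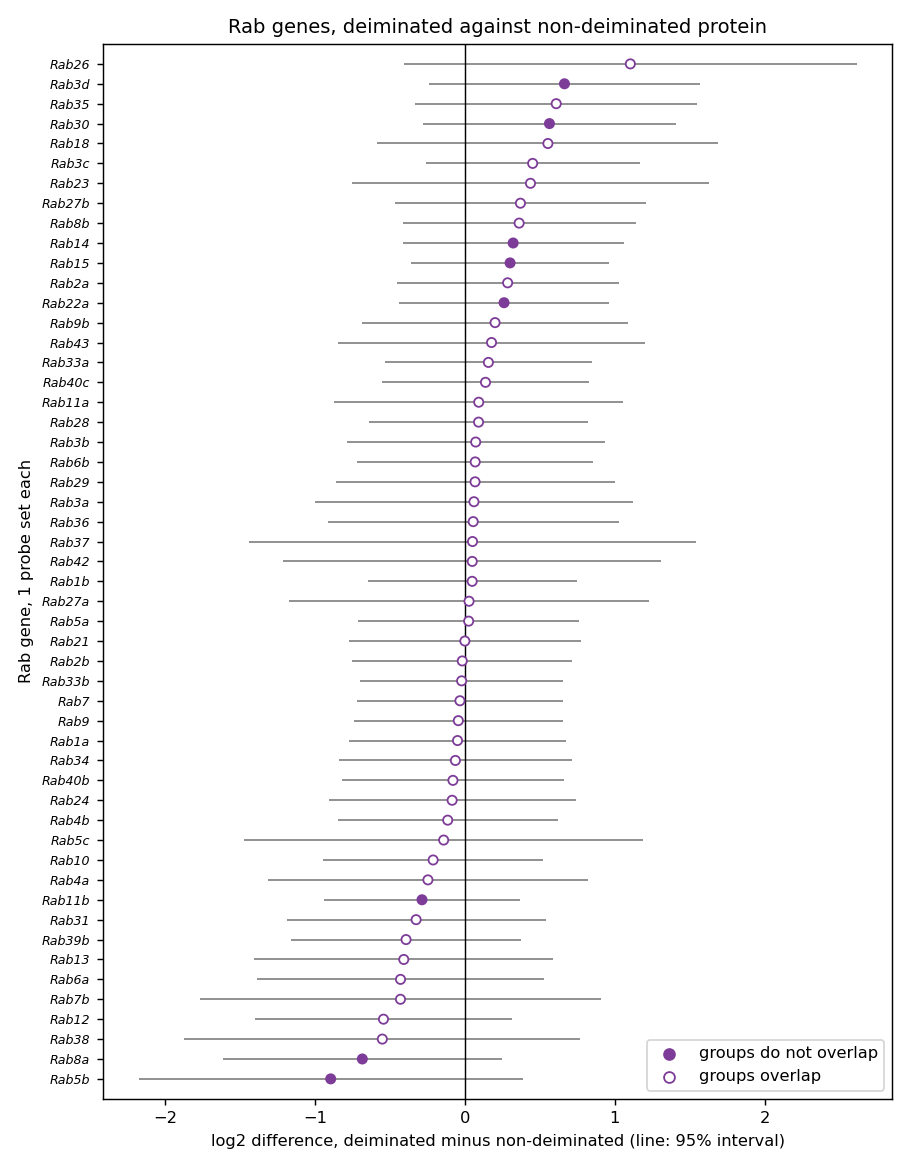
Log2 difference, deiminated minus non-deiminated, for the 52 Rab genes with 1 probe set each; lines are 95% intervals from limma, and filled points mark genes whose groups do not overlap. Every interval includes 0, and the 8 filled points lie on both sides, from -0.90 for Rab5b to 0.66 for Rab3d.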

How the data were processed

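Signal intensity per probe set was deposited on a linear scale by the authors, and the submitters' processing notes name MAS5, with no version in the sources used here. The 2% trimmed mean was 150 on every array. The log2 was taken of the signal plus 4.18, which is the overall median over 10. The 64 control probe sets were left out. Probe sets with a mean log2 signal at or above the 40th percentile were kept (27022 of 45037). The Entrez identifiers of all 132 Rab probe sets matched the GRCm38.p6 gene table, and 0 symbols changed. limma 3.58.1 in R 4.3.3 (lmFit, eBayes with trend) fitted the means of the 3 groups on all 5 arrays, with 2 residual and 10.91 prior degrees of freedom. Bound against input is the mean of both bound group means minus input, and the single input array takes its spread from the bound arrays, an assumption. Benjamini-Hochberg adjustment ran over all tested probe sets, and adjusted p under 0.05 is a call. The fit was checked on simulated data. Of the 119 regulators listed, 112 had a probe set.

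Named genes are up to 10 Rab genes a direction by size among calls against input whose bound arrays lie on 1 side of input, up to 5 a direction between the bound groups among those that do not overlap, the Rab3 and Rab27 genes throughout, and up to 4 regulators a direction by moderated t. Others are named to complete a role group. Members, roles and lists were chosen with earlier results of these data known. Alternatives covered the pseudocount (1.05 and 16.7), the filter, scaling, the variance model, array weights, blocks and leaving out each bound array. For the counts of Rab calls they also covered probe set choice.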

Additional observations from a re-analysis of the deposited data

How the results depend on the processing

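The number of arrays limits the precision, and each comparison with input rests on 1 input array, which could not be left out. The count of 0 Rab calls between the bound groups held under every alternative run, with 0 to 17 at an unadjusted p under 0.05. Without non-deiminated replicate 1 it was 17 of 108, beside 3082 of all 27022 probe sets, of which 24 were called. Against input, most alternatives kept the counts of Rab calls within 1.5 times. Leaving out each bound array gave 51 to 70 calls for bound, 40 to 67 for deiminated and 49 to 59 for non-deiminated RNA, where the full fits gave 56, 52 and 55. Taking 1 probe set a gene left 26, 25 and 25 calls, since fewer probe sets are counted. Scaling to the hybridisation controls gave 0, 0 and 0, and 0 regulator calls where the full fit gave 66; the median standard error over all probe sets for bound against input then went from 0.54 to 2.43. Leaving out each bound array gave 57 to 74 regulator calls.

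The signs that turned follow. Median centring adds 1 constant to all differences of a comparison, and control scaling moved the median of all probe sets from -0.20 to 4.33 for bound against input, so falls smaller than these shifts turn under both by construction. For the other settings the cause was not tested. For bound against input, scaling to the hybridisation controls gave 1.61 for Rab5b, 2.50 for Rab42, 3.13 for Rab29, 3.50 for Rab8a, 3.61 for Rab43, 5.11 for Rab3a, 4.37 for Rab3b, 4.50 for Rab3d, 3.85 for Rab27a and 4.94 for Rab27b. Median centring gave 0.050 for Rab43, 1.11 for Rab3a, 0.98 for Rab3b, 1.17 for Rab3d, 0.81 for Rab27a and 1.23 for Rab27b. Quantile normalisation gave 0.70 for Rab3b, 1.02 for Rab3d and 0.78 for Rab27a, and loess 0.16 for Rab27a. Leaving out each array gave -0.46 to 0.0075 for Rab27b, positive without non-deiminated replicate 2. Between the bound groups, Rab3a had -0.00064 after quantile normalisation, -0.0064 after loess, and -0.37 to 0.49 when each array was left out, negative without deiminated replicate 2 and without non-deiminated replicate 1. Rab27a had -0.027 after control scaling and -0.46 to 0.51 when each array was left out, negative without those same arrays. Rab27b had -0.096 to 0.84, negative without non-deiminated replicate 2.

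The labels give no replicate numbers that the groups share, so no fit used them. Blocks for the protein name in the titles and, added after the data were seen, for the hybridisation control level gave 57 and 68 Rab calls for bound against input and 0 between the bound groups.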
